A study of Drosophila melanogaster with 3 samples.

Results

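The genes of the Polycomb repressive complexes were examined for binding of CG8089-GFP in whole Drosophila melanogaster embryos. The 10 genes were ph-p, ph-d, Pc, Psc, Su(z)2 and Sce of Polycomb repressive complex 1, E(z), Su(z)12 and esc of complex 2, and pho, out of 13945 annotated protein-coding genes on the 6 chromosome arms. They were chosen by name with the summit positions and ranks by signal of these same lists already known, and every peak summit inside each gene or within 2 kb of it was collected. The embryos were 0 to 24 h old, of both sexes pooled, and all came from 1 transgenic strain that stably makes CG8089 with a C-terminal GFP. An antibody against GFP was used for the chromatin immunoprecipitation and sequencing (ChIP-seq). There was 1 group with 3 biological replicates, labelled 2, 3 and 4, so no condition was contrasted and no test between groups was possible. Whole embryos of all stages were used, so a summit is an average over cell types and ages. The control libraries were not analysed here.

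Polycomb group proteins keep developmental genes silent through cell divisions. Complex 2 methylates a lysine in the tail of a core histone, complex 1 binds that mark through Pc, ubiquitinates another histone and compacts chromatin, and the DNA-binding protein Pho helps to bring both to Polycomb response elements. In flies, several of the genes that encode these proteins are known to be Polycomb targets themselves, the ph locus among them.

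The authors' list of reproducible peaks held 3233 entries on dm6, with a signal (the authors' measure of peak strength, of a scale not given in the sources used here) from 115.4 to 4668 and a median of 175. The pooled list and each replicate list held 30000 entries. Ranks count from 1 at the strongest entry of a list. An entry of a replicate list is named top-ranked below when it was among the 3233 strongest of that list. Read depth is unknown.

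A reproducible summit lay in or within 2 kb of 8 of the 10 Polycomb genes, 80% against 26.8% of all protein-coding genes. Among the 7431 protein-coding genes with a window length between the shortest and the longest Polycomb gene window, the share was 29.5%. Lengths were not matched within that range. These 8 genes held 11 reproducible summits, of which 4 were at ph-p and 1 each at ph-d, Pc, Psc, Su(z)2, E(z), Su(z)12 and pho. Sce and esc had none. The summit at Pc was nearer to other genes, and 7 genes (70%) remained when the nearest start site had to be that of the gene itself, a rule chosen after the values were seen, against 14.2% of protein-coding genes. Within 500 bp of a transcription start site, 5 genes (50%) had a reproducible summit, ph-p, Su(z)2, E(z), Su(z)12 and pho, against 14.6%. The genes were picked with these data known, so the counts are a description. When only reproducible peaks with a top-ranked summit of both other replicates were counted, 5 genes were left without replicate 2, 6 without replicate 3 and 5 without replicate 4, and the shares of protein-coding genes were 18.5%, 20.3% and 17.8%. The genes ph-p, ph-d, Pc, Psc and Su(z)12 were kept each time, and pho without replicate 3. Of the 5 genes with a promoter summit, ph-p and Su(z)12 were kept each time, with 2, 3 and 2 genes in all without replicates 2, 3 and 4, against 9.08%, 10.4% and 8.83% of protein-coding genes. Of the 11 summits, 7, 8 and 7 were kept, against 63.5%, 65.5% and 58.5% of all reproducible peaks.

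**Figure D1:**
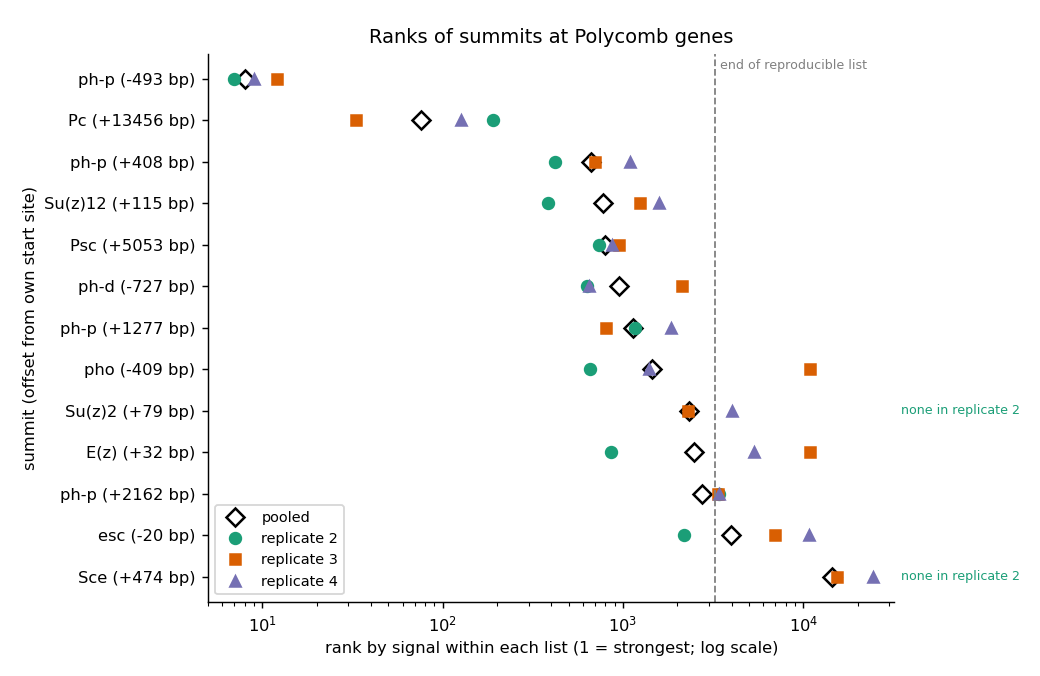
Rank by signal (log axis, 1 is the strongest) of the 11 reproducible summits and of the strongest pooled summits of esc and Sce, in the pooled list (diamonds) and in replicates 2 (circles), 3 (squares) and 4 (triangles); offsets in brackets count from the gene's own nearest start site, positive into the gene. The strongest ph-p summit lies between ranks 7 and 12 in every list, while in replicate 3 the pho and E(z) summits lie at ranks 10841 and 10879.

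The DNA under 4 summits whose windows hold no exon is printed to show what lies at the strongest ph-p site, at the site of its tandem copy ph-d and at pho. Each run is 201 bases on dm6, plus strand, centred on the summit, and capitals mark every match, on either strand, to the 6 words searched, which were the core of the Pho site (GCCAT), the GAGA element (GAGAG), the DNA replication-related element (TATCGATA), a site of the early activator Zelda (CAGGTA) and a pair of words with no factor assigned here, ACACTG beside the similar ACAGTG.
ph-p, strongest summit, chrX:2137248-2137448: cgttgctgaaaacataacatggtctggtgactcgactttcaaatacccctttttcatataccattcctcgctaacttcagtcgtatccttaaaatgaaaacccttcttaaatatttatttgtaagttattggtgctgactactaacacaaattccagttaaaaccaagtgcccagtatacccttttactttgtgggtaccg
ph-p, weakest reproducible summit, chrX:2134360-2134560: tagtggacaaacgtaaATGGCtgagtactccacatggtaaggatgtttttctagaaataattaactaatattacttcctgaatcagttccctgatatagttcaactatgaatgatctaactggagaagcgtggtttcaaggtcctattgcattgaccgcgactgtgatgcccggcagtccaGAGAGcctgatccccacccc
ph-d, chrX:2123913-2124113: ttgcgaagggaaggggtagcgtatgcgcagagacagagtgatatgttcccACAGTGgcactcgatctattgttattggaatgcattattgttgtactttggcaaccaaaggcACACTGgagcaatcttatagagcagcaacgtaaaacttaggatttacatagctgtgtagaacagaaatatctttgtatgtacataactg
pho, chr4:1181937-1182137: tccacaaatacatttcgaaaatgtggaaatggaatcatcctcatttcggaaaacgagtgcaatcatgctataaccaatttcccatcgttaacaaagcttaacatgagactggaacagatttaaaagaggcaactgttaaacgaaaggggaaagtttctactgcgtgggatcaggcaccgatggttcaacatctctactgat
The strongest ph-p window and the pho window held none of these words. The weakest ph-p window held ATGGC, the reverse complement of the Pho core GCCAT, and 1 GAGAG, and the ph-d window held 1 ACAGTG and 1 ACACTG.

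The strongest site at any Polycomb gene was at ph-p (FBgn0004861, chromosome X, 2126210 to 2138371, minus strand), which encodes Polyhomeotic proximal, a subunit of complex 1. The peak at 2137165 to 2137554 had its summit at 2137348 and a signal of 1807, rank 8 of the pooled list. The summit is intronic in the longest transcript, 1023 bp after its start, and 493 bp upstream of the nearest start site, that of a shorter transcript. In the replicates the same site had a signal of 696 in replicate 2, 571 in replicate 3 and 555 in replicate 4, at ranks 7, 12 and 9. The 3 replicate summits lay within 6 bp of the pooled one.

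Another 3 reproducible summits lay in ph-p, and 0.789% of protein-coding genes (110 genes) had 4 or more. The summit at 2137963, in the 5' untranslated part of the first exon and 408 bp from the first start site, had rank 666 and a signal of 288. Its ranks were 420, 702 and 1096 in replicates 2, 3 and 4, so it was top-ranked in each. The summit at 2135345, in an intron 1277 bp after the nearest start site, had rank 1141, and ranks 1167, 804 and 1844 in the replicates. The summit at 2134460, further into the same intron, was the weakest of the 11 at any Polycomb gene, with rank 2760 and a signal of 127. Its replicate ranks, 3397, 3362 and 3397, were close to each other and all just past the top 3233. At the innermost start site of the gene, the pooled list had a further summit 31 bp away at rank 7078, which was top-ranked in replicate 4 (rank 3013) and not in replicates 2 and 3 (ranks 6403 and 27875).

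The tandem copy ph-d (FBgn0004860, chromosome X, 2115727 to 2123286, minus strand), which encodes Polyhomeotic distal, had 1 reproducible peak, 2123998 to 2124103. Its summit at 2124013 was in the 2923 bp between the genes, 727 bp upstream of the ph-d start. It was outside the ph-p window by distance, 2197 bp from the end of ph-p, and was the summit nearest beyond the 2 kb limit of any of the 10 genes. The signal was 237 (rank 945), against 1807 for the strongest ph-p site. It was 101 in replicate 2, 61.1 in replicate 3 and 88.9 in replicate 4, at ranks 634, 2126 and 649, so this site was top-ranked in all 3. Each replicate ranked the strongest ph-p summit above the ph-d summit.

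The sequences of the copies are partly alike, so the uniqueness of the DNA was measured. Within ph-p and 2 kb around it 75.8% of 36-base words occurred once in the Release 6 assembly, and within ph-d and 2 kb around it 78.2%. A single read of 36 bases from the rest could not be placed by sequence alone. In the 201 bp windows of all 11 reproducible summits, every 36-base and every 50-base word occurred once. The best local alignment of the strongest ph-p window with the ph-d window had 48 identical columns of 77, on opposite strands, and its score of 10 was below that of the best pair among the 55 pairs of windows (18, between a ph-p window and that of E(z)).

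**Figure D2:**
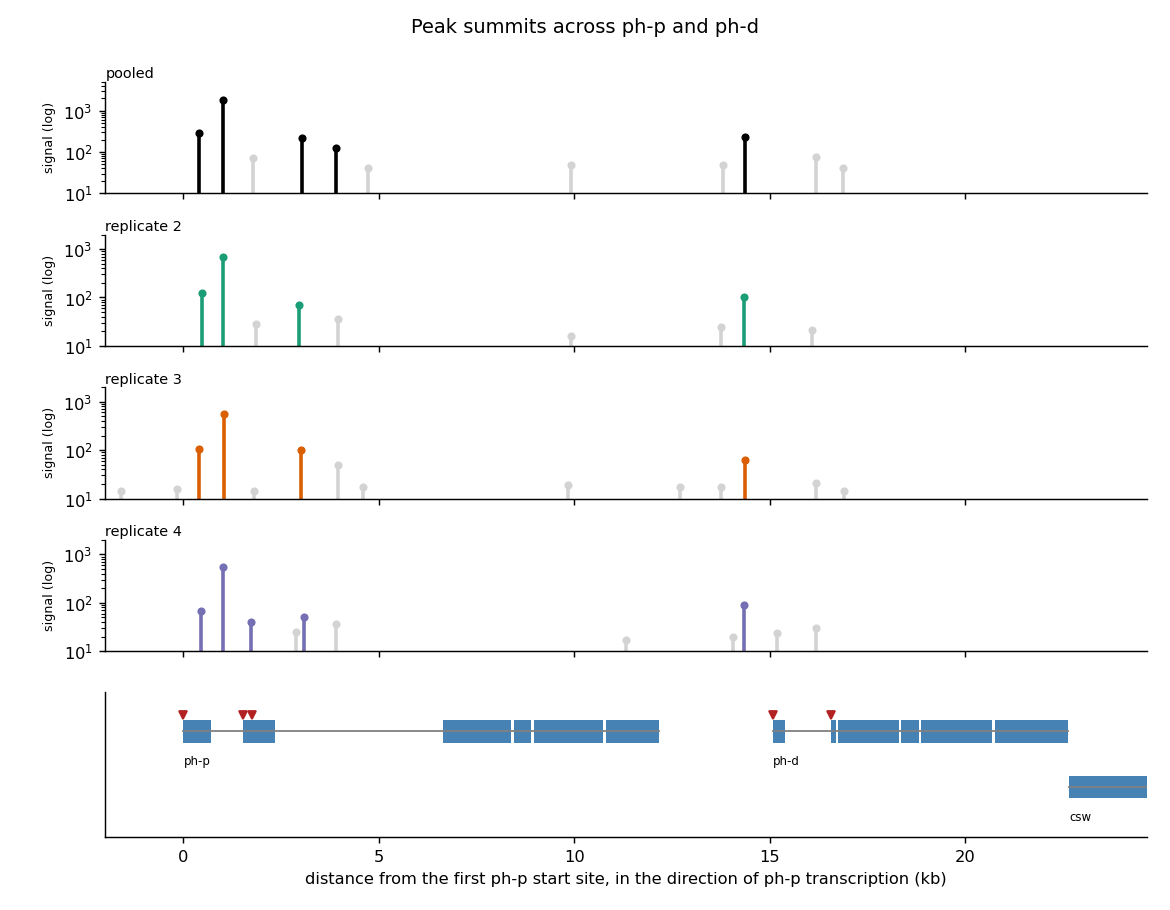
Signal (log axis) of every summit of the pooled list and of each replicate across ph-p and ph-d, by distance in kb from the first ph-p start site; coloured stems are among the 3233 strongest of their list, grey stems are not. Boxes below are exons and triangles are start sites. The tallest stem stands 1019 to 1029 bp after the first start site in every track, and the ph-d stem stands upstream of ph-d.

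Psc and Su(z)2 are neighbouring paralogues on 2R that are transcribed away from each other, with 15506 bp between them. Psc (FBgn0005624, 12965997 to 12980994, minus strand) encodes a RING-finger subunit of complex 1. Its reproducible peak at 12975407 to 12975802 was intronic, 5053 bp from the nearest start site, the farthest from a start among the summits whose nearest start is that of the gene. The signal was 263 (rank 797), and it was 92.0, 91.8 and 76.8 in replicates 2, 3 and 4. The ranks 734, 946 and 869 were close to each other and all top-ranked. At the Psc promoter itself the pooled list had a summit 109 bp from the start with rank 4413, below the reproducible list. That promoter summit ranked 1735 in replicate 3 and 4223 in replicate 4, and replicate 2 had no summit in that peak.

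Su(z)2 (FBgn0265623, 12996501 to 13007911, plus strand) encodes a relative of Psc with a role in Polycomb silencing. Its reproducible peak, 12996382 to 12996777, had its summit 79 bp from the start, in the 5' untranslated part, with a signal of 142 (rank 2309). Replicate 3 had a summit in the peak at rank 2304 and replicate 4 at rank 4028, with signals of 58.8 and 34.0. Replicate 2 had none, and its nearest summit was 7607 bp away. This was the only one of the 11 summits that was missing from a replicate list. Of all 3233 reproducible peaks, 5.38% had no entry in replicate 2, 2.26% in replicate 3 and 1.08% in replicate 4.

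The missing entry was part of a longer stretch. In replicate 2 no summit at all lay between 12976491, in the Psc intron, and 13004187, inside Su(z)2, a gap of 27696 bp that held 18 summits in replicate 3 and 11 in replicate 4. Gaps of that length or more were 274 of the 29994 gaps between neighbouring summits of replicate 2, whose median was 2633 bp. Between the genes, outside the 2 kb windows, the reproducible list had a summit of signal 397 (rank 332) 217 bp from the start of lncRNA:CR44339 and a weaker one of rank 2244. The stronger ranked 360 in replicate 3 and 377 in replicate 4. Replicate 2 had no entry there, as at 3 of the 332 strongest reproducible peaks, while replicate 3 lacked 7 of these and replicate 4 lacked 2. The part of the libraries in this difference was not tested.

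**Figure D3:**
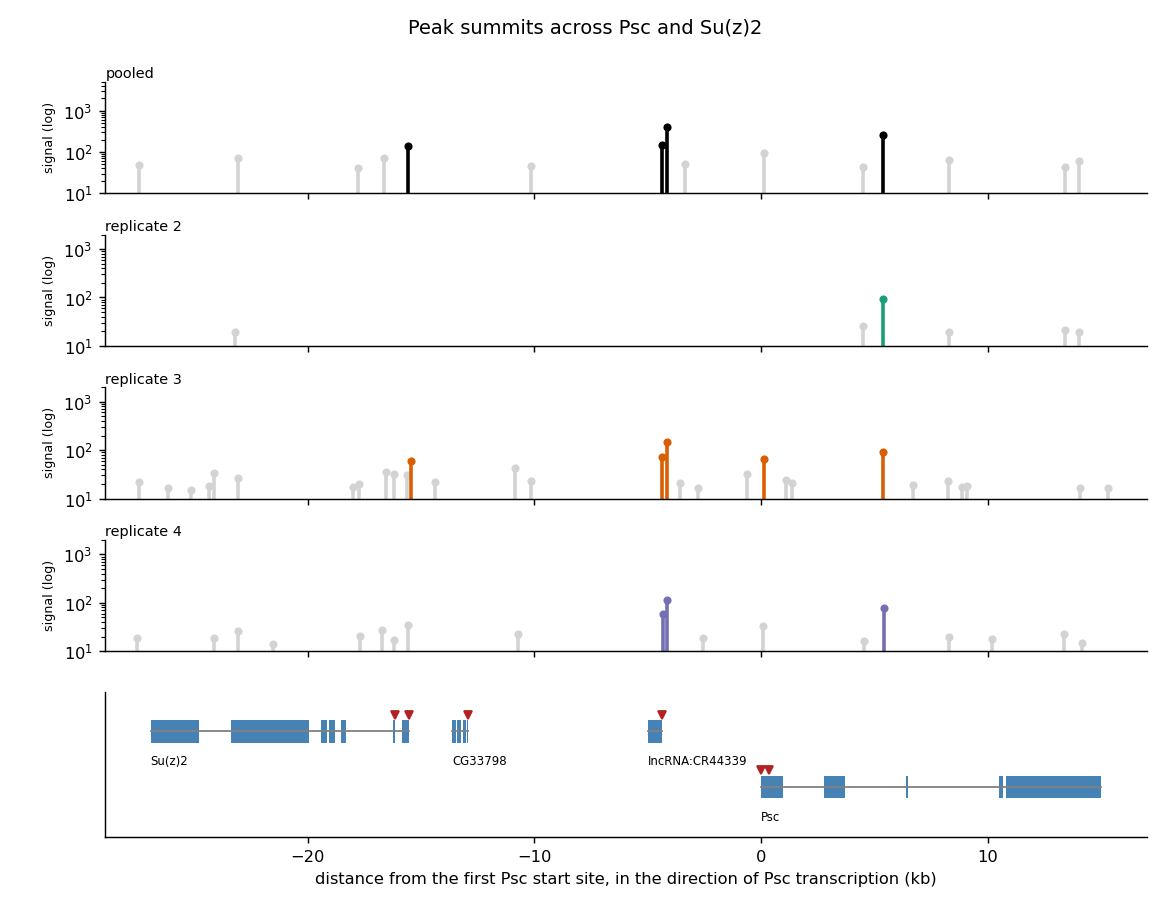
Signal (log axis) of every summit of the pooled list and of each replicate across Psc and Su(z)2, by distance in kb from the first Psc start site in the direction of Psc transcription; coloured stems are among the 3233 strongest of their list. The intronic Psc stem, about 5 kb after the start, is coloured in every track, and the track of replicate 2 is empty from that intron to the body of Su(z)2.

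The other subunits of complex 1 had no reproducible summit nearest to their own start. Pc (FBgn0003042, chromosome 3L, 21306138 to 21318020, minus strand) encodes the chromodomain protein that binds the histone mark of complex 2. The only reproducible peak of its window, 21304430 to 21304725, lay 1574 bp past the 3' end of Pc and 13456 bp from the Pc start. It was strong, with a signal of 734 (rank 76), and signals of 177, 375 and 180 at ranks 190, 33 and 126 in replicates 2, 3 and 4. Its summit was 94 bp from a start of CG11309 and 133 bp from that of CG7632, which are transcribed away from each other. At the Pc promoter the pooled list had a summit 79 bp upstream with a signal of 60.0 (rank 10640). Replicate 3 had a summit there at rank 15236, and replicates 2 and 4 had none. In the window of Pc only 43.0% of 36-base words occurred once in the assembly, the lowest of the 10 genes, so a stretch of it without summits cannot be read as a lack of binding.

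Sce (FBgn0003330, chromosome 3R, 27680431 to 27682029, minus strand) encodes the RING ubiquitin ligase for a core histone. It had the weakest signal of the 10 genes. The pooled list had 1 summit in its window, in coding sequence 474 bp from the start, with a signal of 52.0 (rank 14362). Replicate 3 had a summit there at rank 15399 and replicate 4 at rank 24250, and replicate 2 had none. The nearest reproducible summit was 44180 bp from the gene.

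Of the genes of complex 2, Su(z)12 (FBgn0020887, chromosome 3L, 19918242 to 19923462, minus strand), which encodes a zinc-finger scaffold subunit, had the strongest summit. The peak at 19923149 to 19923544 had a signal of 267 (rank 773), with the summit in the 5' untranslated part 115 bp from the start. The divergent gene Pfdn6, which encodes a prefoldin subunit, starts 324 bp away. The signals were 129 in replicate 2, 80.5 in replicate 3 and 55.1 in replicate 4. Their ranks, 382, 1243 and 1594, were all top-ranked.

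E(z) (FBgn0000629, chromosome 3L, 10634575 to 10638130, minus strand) encodes the histone methyltransferase of complex 2. Its reproducible peak, 10637900 to 10638295, was among the weakest, with a signal of 136 (rank 2475). The summit was 32 bp from the E(z) start and 48 bp from that of the divergent gene Cnep1r2, so the peak cannot be given to one of them by position. The signal was 84.8 in replicate 2, 25.8 in replicate 3 and 30.3 in replicate 4. The ranks spread 12.7-fold, from 855 in replicate 2 to 5303 in replicate 4 and 10879 in replicate 3, so only replicate 2 had it top-ranked.

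The gene esc (FBgn0000588, chromosome 2L, 11827204 to 11829405, minus strand), which encodes a WD-repeat subunit of complex 2, was just below the reproducible list. Its promoter summit, 20 bp upstream of the start and inside an intron of Pde1c, had a signal of 102 and rank 3965, the strongest summit at a Polycomb gene outside the list. It was top-ranked in replicate 2 (rank 2173) and not in replicates 3 and 4 (ranks 6998 and 10693). Both E(z) and esc ranked highest in replicate 2, as did the reproducible summits of ph-d, Psc, Su(z)12 and pho. The ph-p summits at 2137348 and 2137963 did so too. Those of Pc and Su(z)2 and the ph-p summits at 2135345 and 2134460 ranked highest in replicate 3.

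The gene pho (FBgn0002521, chromosome 4, 1172469 to 1181628, minus strand) encodes the zinc-finger protein that binds Polycomb response elements. Its reproducible peak, 1181839 to 1182234, was intergenic, with the summit 409 bp upstream of the start, a signal of 186 and rank 1458. The signal was 98.2 in replicate 2, 25.8 in replicate 3 and 59.5 in replicate 4. The ranks 656, 10841 and 1389 spread 16.5-fold, the widest of the 10 summits found in all replicates, and replicate 3 alone did not have it top-ranked. No pooled summit lay within the gene. In the window of pho 88.4% of 36-base words occurred once.

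**Figure D4:**
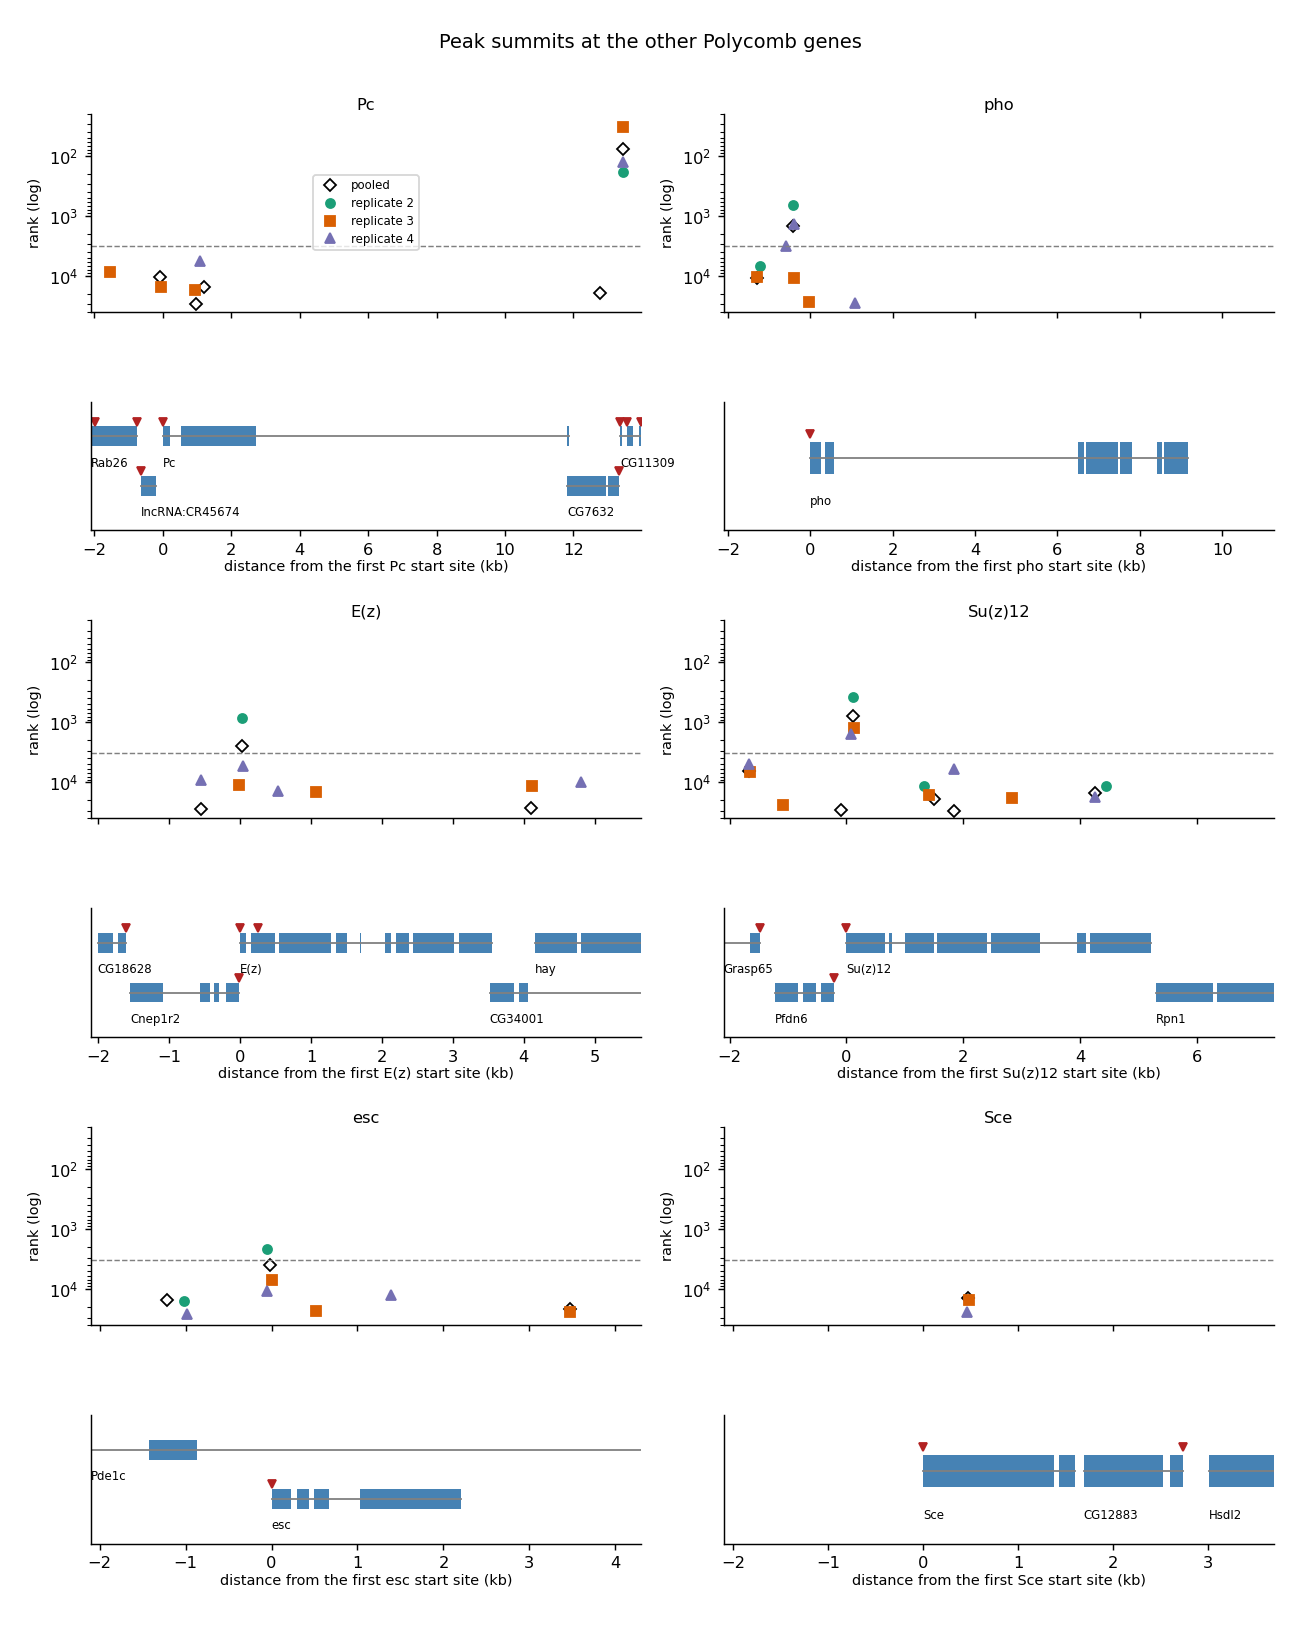
Rank (log axis, strongest at the top) of every summit in the windows of Pc, pho, E(z), Su(z)12, esc and Sce, by distance in kb from the first start site, in the pooled list and each replicate; the dashed line is rank 3233, boxes are exons and triangles are start sites. The high symbols of Pc stand past its 3' end at the start of CG11309. The strongest pooled summits of Su(z)12, E(z), esc, pho and Sce stand within 500 bp of the gene's own start.

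Across the replicates, the 10 genes were compared by their own top-ranked entries. A top-ranked summit lay in the windows of 8 genes in replicate 2 (27.9% of all protein-coding genes), 6 in replicate 3 (25.7%) and 6 in replicate 4 (26.9%), a mean of 6.67 ± 1.15 (SD, n = 3). Replicate 2 had esc and E(z), which the others lacked, and replicate 3 alone had Su(z)2. Of the 11 reproducible summits, 7 were top-ranked in all 3 replicates, 1 in 2 replicates, 2 in 1 and 1 in none, the last being the weakest ph-p summit. The share in all 3 was 51.9% over all reproducible peaks. The pooled list is made of the replicates, so this recovery follows in part from the design. Weak entries were spread unevenly. Counting entries of any rank, the windows of the 10 genes held 24 distinct summits in replicate 2, 57 in replicate 3 and 43 in replicate 4. In each replicate 1 summit between ph-d and ph-p lay in both windows, and counted once for each gene the mean was 2.5, 5.8 and 4.4 per gene, against 2.78, 3.31 and 3.18 per protein-coding gene. The windows of the Polycomb genes were also longer, with a median of 12360 bp against 6166 bp. All 10 genes had a pooled entry in the window, against 80.8% of protein-coding genes, and within 500 bp of a start site, against 51.7%. The median rank of the best pooled entry was 1201.5 over the 10 genes and 8682 over all 13945 protein-coding genes. For that median, genes without a pooled entry were placed just past the end of the list. Only 11267 of the protein-coding genes had an entry.

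The 11 reproducible summits fell in 5 introns, 4 stretches of 5' untranslated sequence and 2 intergenic sites, with the Pc summit counted in an intron of CG11309. Their windows of 201 bp were searched on both strands for a few words. The Pho core GCCAT was in 2 of 11 windows (ph-p and Psc) and in 29.3% of all reproducible windows, and GAGAG, bound by the GAGA factor, was in 3 (ph-p, Su(z)2 and E(z)) and in 26.2%. The Su(z)2 window held 4 copies of GAGAG, some of which can overlap. The words ACACTG (ph-d and Su(z)12) and ACAGTG (ph-p and ph-d) were in 2 windows each, and in 20.9% and 19.3% of all windows. TATCGATA and CAGGTA were in none of the 11, and in 3.80% and 4.49% of all. A match is a description of the letters only. The GC content of the windows ran from 28.4% at a ph-p intron to 48.8% at Su(z)2, with a median of 37.3% over all reproducible windows.

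The promoter summits most like the strongest ph-p summit were sought by the sum, over the 3 replicates, of the absolute difference in log2 rank. The nearest were at Chro, which encodes a chromatin protein of interbands (sum 1.57, ranks 10, 16 and 14), at CG1888 (sum 1.63, ranks 18, 13 and 10) and at Ugalt, which encodes a UDP-galactose transporter (sum 2.04, ranks 8, 10 and 3).

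The other genes of the Polycomb group were then counted. Of 22 listed genes, 15 (68.2%) had a reproducible summit in the gene or within 2 kb, and 11 (50%) one whose nearest start site was their own, against 26.8% and 14.2% of protein-coding genes. Without replicate 4, 9 were left (17.8% of protein-coding genes), and 11 and 12 without replicates 2 and 3 (18.5% and 20.3%). Within 500 bp of a start site there were 7 (31.8%), against 14.6% of protein-coding genes. The strongest summits in these windows belonged by position to other genes. That of Caf1-55, a histone chaperone that is also a subunit of complex 2, had rank 18 and lay 115 bp from the start of Art3, and that of phol, the relative of pho, had rank 90 and lay 91 bp from CG3552. Dsp1 (rank 318) and caly (rank 937) also had summits nearer to other genes, as did Spps (1873) and jing (1615). Nearest to their own start were the strongest summits of psq (rank 1171, 61 bp), sxc (1283, 326 bp), E(Pc) (1288, 1216 bp), corto (1323, 1047 bp), Kdm2 (1531, 2029 bp), mxc (1884, 86 bp), Sfmbt (1996, 91 bp), lolal (2330, 4 bp) and l(3)73Ah (2407, 247 bp). Sfmbt encodes the partner of Pho in its complex, and its summit ranked 587 in replicate 2 and 1364 in replicate 4 and was missing from replicate 3. The corto summit was missing from replicate 2. No reproducible summit was found for Asx, Jarid2, Pcl, Scm, cg, crm or escl.

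The trithorax group genes, which keep active states and oppose Polycomb silencing, were counted the same way. Of 25 genes matched, 19 (76%) had a reproducible summit in the window, 8 (32%) one nearest to their own start, and 10 (40%) one within 500 bp, against 26.8%, 14.2% and 14.6% of protein-coding genes. Without replicate 2 the count of 19 became 9, and without replicates 3 and 4 it was 15 and 11, against 18.5%, 20.3% and 17.8% of protein-coding genes. The strongest summit was in the window of ash1, a histone methyltransferase gene, at rank 4, but 93 bp from the start of CG14100. Those of osa (rank 45), kis (589), Set1 (751), wds (446), mor (925), skd (1452), Bap60 (1466), Rbbp5 (1811), trr (2365), Bap111 (2774) and Snr1 (3102) were likewise nearer to another start. Trl, which encodes the GAGA factor, had 4 reproducible summits, the strongest at rank 72 and 1524 bp from its start, with ranks 75, 67 and 90 in the replicates. The gene trx itself, a histone methyltransferase gene, had rank 358 at an intronic summit 3009 bp from its start, and ranks 312, 335 and 383. Then came fs(1)h (1029), brm (1478), tna (1564), vtd (2245) and Mnn1 (2920), and the vtd summit was missing from replicate 3. Median gene length was 8360 bp for the 10 genes, 6840 bp for the other Polycomb group and 7587 bp for the trithorax group. The longest genes were jing (119787 bp) in the other Polycomb group and tna (40969 bp) in the trithorax group. The median window of protein-coding genes, flanks included, was 6166 bp. The shares of these lists were not matched for length to protein-coding genes, and differences between the lists were not tested.

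**Figure D5:**
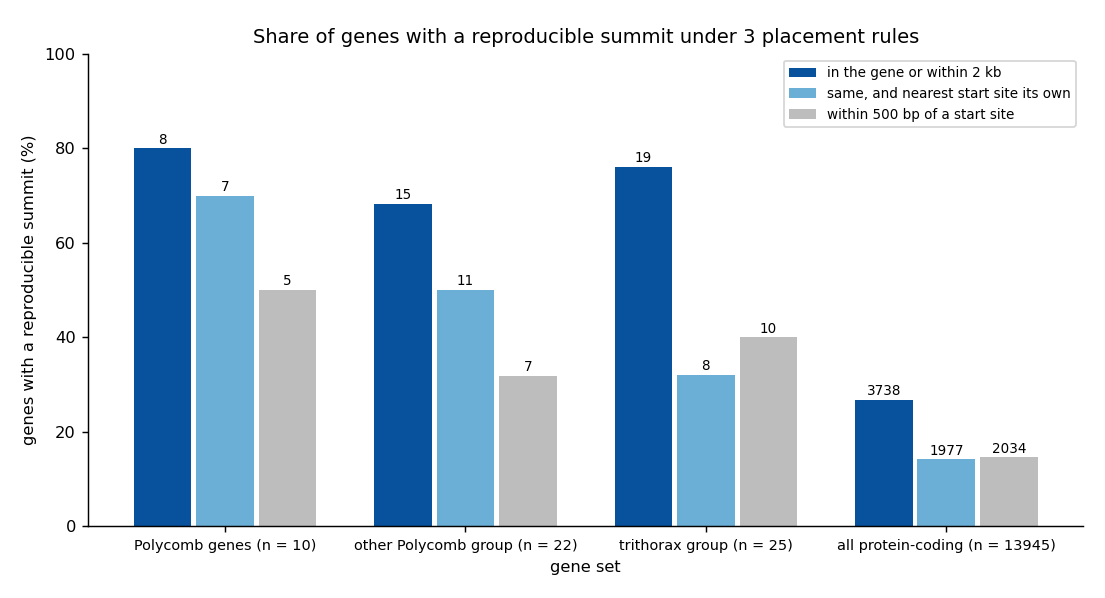
Percent of genes with a reproducible summit under 3 placement rules, for the 10 Polycomb genes, 22 other Polycomb group genes, 25 trithorax group genes and 13945 protein-coding genes; numbers over the bars count genes. All 3 lists stand above the protein-coding genes under each rule, and the trithorax bar drops from 76% to 32% when the nearest start site must be the gene's own.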

How the data were processed

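Per the deposited descriptions of the files, the authors made a peak list from every replicate alignment and another from all 3 together, on dm6 and dm3, and derived the reproducible list by an irreproducible discovery rate (IDR) step. Caller, version and threshold: not given in the sources used here. The deposited lists give a signal per peak, by which entries were ranked inside their own list, and −log10 of a q-value, read but not used to rank. The reproducible list was found to be the 3233 strongest pooled entries. Chromatin was fragmented to 200 to 800 bp, per the labels. Read depth is unknown and no interval was derived from it.

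Only the dm6 lists were used. Genes and start sites were those of Ensembl release 115 without transposable elements, 18164 genes on 6 arms. All peaks and genes ended within the Release 6 chromosomes, whose sequence was taken from RefSeq. A replicate held a peak when the summit of one of its entries lay inside it, and its strongest such entry gave the rank. The symbol lid had no match. The members and lists were chosen with earlier results of these data known. The named genes are the 10 members, genes at the start sites beside their reproducible summits, listed genes with a reproducible summit, and the 3 genes of most similar promoter ranks; the lncRNA between Psc and Su(z)2 and the genes without a summit were named after their values were seen. Alternatives were other flanks and windows, the stronger 1616 peaks, any pooled entry, overlap of peaks, the gene's own start site as the nearest, and lists without each replicate. The counting was tested on simulated summits planted in 200 of the 13945 protein-coding genes, and 200 were recovered. Python 3.11.15, numpy 2.4.6, pandas 2.3.3, biopython 1.88 and matplotlib 3.10.9 were used.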

Additional observations from a re-analysis of the deposited data

How the results depend on the processing

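The counts of genes depended on how far from a gene a summit may lie. With the gene body alone, 5 of the 10 Polycomb genes had a reproducible summit, 6 of the other Polycomb group genes, 8 of the trithorax group genes and 1314 protein-coding genes (9.42%). With a flank of 500 bp the counts were 6 Polycomb genes (60%), 9 other Polycomb group genes (40.9%) and 15 trithorax group genes (60%). The protein-coding count was 2767 (19.8%). With a flank of 5 kb the counts were 8 (80%), 17 (77.3%) and 20 (80%), against 5350 protein-coding genes (38.4%). Requiring the gene's own start site to be nearest gave 8 trithorax group genes and 1977 protein-coding genes. With a window of 250 bp, 3 Polycomb genes had a promoter summit, against 11.9% of protein-coding genes. In the stronger 1616 peaks, 3 Polycomb genes had one within 500 bp, against 8.05%, and 6 had a summit in the gene or within 2 kb, against 2266 protein-coding genes (16.2%). Counting any pooled entry gave 10 Polycomb genes with a promoter summit (51.7% of protein-coding genes), 43 summits at Polycomb genes, of which 42 were distinct since 1 lay in the windows of both ph-d and ph-p, and 11267 protein-coding genes (80.8%) with a summit in the gene or within 2 kb.

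The lists without each replicate held 1892 to 2119 peaks. Over them the ranges were 5 to 6 Polycomb genes, 2 to 3 with a promoter summit and 7 to 8 summits. The count recovered by both other replicates was the same 7 to 8, since that recovery is the rule of these lists. The ranges were 9 to 12 other Polycomb group genes, 9 to 15 trithorax group genes and 2487 to 2828 protein-coding genes (17.8% to 20.3%). The lists without a replicate are shorter by construction. Each holds the reproducible peaks with a top-ranked summit of both other replicates, so the replicate left out still shaped the peaks. No paired analysis was possible because there was 1 group. With read depth unknown and the control libraries not analysed here, weak entries cannot be separated from background.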
